A study of Mus musculus with 4 samples.

Results

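The 51 genes described here encode proteins that take cells into mitosis, build the spindle, attach chromosomes to it and pull sister chromatids apart. They were chosen by name, and each symbol matched 1 of the 50686 Ensembl gene identifiers counted in every library. All 51 passed the filter on low counts, which left 15394 genes for testing, and the lowest count of any of the 51 was 5 reads.

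The study measured RNA by bulk sequencing in mouse cells of spleen and lymph node origin, either Yap KO or WT, with the RNA taken from culture. Its 4 libraries were stimulated Yap KO, stimulated WT, unstimulated Yap KO and unstimulated WT, with 1 library in each group. The titles of the stimulated libraries carry the number 24 without a unit. No source used here gives the stimulus, the cell type, the animals' age, how Yap was deleted or in which cells. Since all titles share the number 1, the stimulated and unstimulated libraries of a genotype may stem from a common animal or culture.

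Between 19935523 and 25419974 reads per library fell in genes. Yap1, the targeted gene, had 2 reads in stimulated Yap KO cells and 3 in stimulated WT cells, against 0 in unstimulated Yap KO cells and 1 in unstimulated WT cells, so its level cannot check the genotype labels. Markers of T cells were the highest of the marker lists in every library: 8 of them summed to 1378 CPM (read counts scaled to a common library size) in stimulated Yap KO cells and 1580 CPM in stimulated WT cells, against 4875 CPM in unstimulated Yap KO cells and 4642 CPM in unstimulated WT cells. Among them Cd8a and Cd8b1 were high, while Cd4 had at most 3 reads. B cell markers summed to 20.5, 10.2, 42.8 and 29.3 CPM in the same order of libraries, and NK cell markers to 184, 136, 251 and 99.1 CPM. Klrk1 and Eomes, which CD8 T cells also express, carried most of the NK sum, while Ncr1 had at most 15 reads in any library and Gzma was at 0.881 and 1.03 CPM in stimulated Yap KO and WT cells, against 31.2 and 16.9 CPM in unstimulated Yap KO and WT cells. Plasma cell markers summed to 7.57, 6.66, 73.4 and 113.8 CPM, and dendritic cell markers to 32.6, 15.2, 37.8 and 14.4 CPM. In bulk RNA, fewer cells of a type and less RNA per cell cannot be told apart, and the part of these marker shifts in the results below was not tested.

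As background, cyclin B with the kinase CDK1 starts mitosis, and the spindle assembly checkpoint holds cells in it until every kinetochore is attached. The anaphase-promoting complex with CDC20 then marks cyclin B and securin for destruction, which frees separase to cut cohesin. Most of these genes are transcribed in late G2 and M phase: in resting cells the DREAM complex silences them through promoter elements called the cell cycle homology region (CHR), often with CCAAT boxes nearby that bind NF-Y, and in cycling cells MYBL2 and FOXM1 activate them. Resting lymphocytes sit outside the cycle and enter it after activation.

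The promoters of 6 of the genes are shown because they carry these elements or, for Racgap1, because its log2 difference between states was small, at 0.55. Each line gives the 120 bases before the RefSeq start on GRCm38.p6, 5′ to 3′ on the gene's own strand, with CHR matches (TTTGAA or TTCGAA) and CCAAT matches in capitals on either strand. Cdk1 lies on chr10:69352913-69353032 (minus), Espl1 on chr15:102296173-102296292 (plus), Cdc20 on chr4:118437344-118437463 (minus), Kif11 on chr19:37376262-37376381 (plus), Top2a on chr11:99024190-99024309 (minus) and Racgap1 on chr15:99651657-99651776 (minus).
Cdk1: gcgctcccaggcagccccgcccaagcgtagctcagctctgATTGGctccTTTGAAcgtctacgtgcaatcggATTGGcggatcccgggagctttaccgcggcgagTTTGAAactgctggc
Espl1: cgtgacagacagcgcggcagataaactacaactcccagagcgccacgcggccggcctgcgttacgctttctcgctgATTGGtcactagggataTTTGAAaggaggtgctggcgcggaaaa
Cdc20: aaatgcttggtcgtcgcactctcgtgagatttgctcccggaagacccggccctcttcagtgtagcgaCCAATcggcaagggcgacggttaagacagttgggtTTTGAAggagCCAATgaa
Kif11: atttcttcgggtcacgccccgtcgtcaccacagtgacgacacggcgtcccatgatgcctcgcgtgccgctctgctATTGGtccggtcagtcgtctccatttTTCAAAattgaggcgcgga
Top2a: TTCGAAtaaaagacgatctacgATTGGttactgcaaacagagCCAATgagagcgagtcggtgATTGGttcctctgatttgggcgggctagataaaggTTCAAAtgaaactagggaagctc
Racgap1: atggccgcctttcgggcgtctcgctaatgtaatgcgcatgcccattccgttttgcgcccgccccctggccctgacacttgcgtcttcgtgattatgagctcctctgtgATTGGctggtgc
In Cdk1 and Top2a the window held several matches of each motif, and in Espl1, Cdc20 and Kif11 a CHR match lay 27, 18 and 19 bases before the start. In Racgap1 the CHR match lay after the start, outside the printed stretch, and a CCAAT match 12 bases before it.

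Over the whole window, from 250 bases before to 50 bases after the start, 43 of the 51 genes had an entry in the RefSeq promoter table. Of these, 32 (74.4%) held a CHR match, against 21.7% of the 27025 genes in that table. A CCAAT match was present in 32 (74.4%) of the 43, against 41.1% of all genes, and both motifs in 28 (65.1%), against 8.61%. In the 100 bases before the start alone, 25.6% of the genes held a CHR match, against 7.18% of all genes. Among other mitosis genes 57.9% held a CHR match, among genes of G1/S and DNA replication 23.5%, and among subunits of the anaphase-promoting complex 14.3%. For CCAAT matches the shares in these lists were 57.9%, 61.8% and 35.7%, so the first 2 lay nearer to that of the 51 genes. CHR matches had a median position of 18 bases before the start, with 32 of 47 within 60 bases of it, and CCAAT matches of 67 bases before it. These positions cover 48 promoters of the 43 genes. A site near several starts of a gene, as in Ect2, Prc1 and Bub3, was counted for each start. The share with a CHR match was 74.2% among members whose log2 stimulation difference was at least 4 and 75% among those under 4. These are matches of letters, and no binding was measured.

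**Figure D1:**
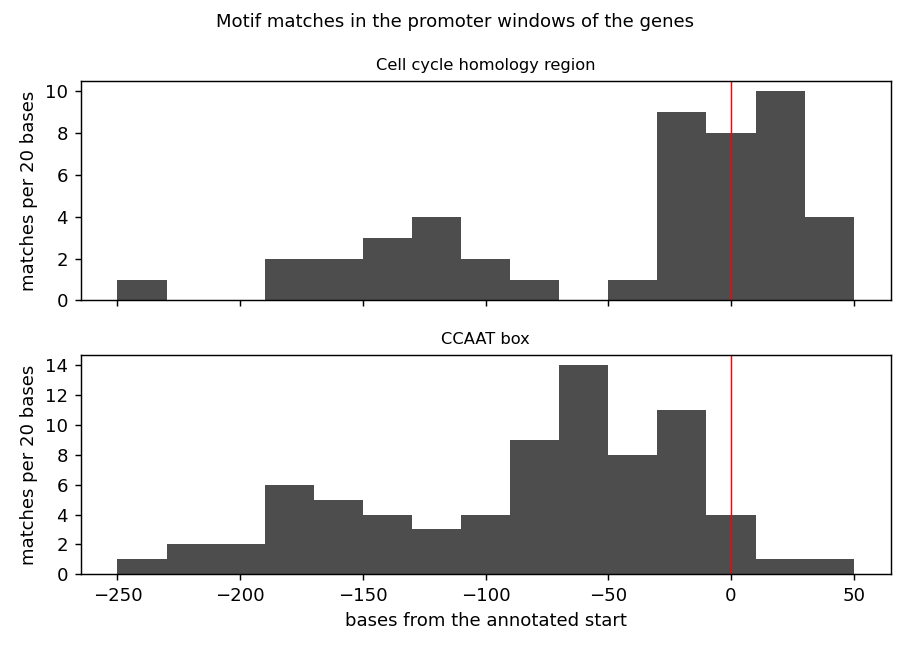
Number of matches to the CHR (upper panel) and the CCAAT box (lower panel) in bins of 20 bases, against the distance in bases from the annotated start (red line), over the 48 promoters of the 43 genes with an entry. A site near several starts of a gene is counted for each start. CHR matches gather around the start, with 32 of 47 within 60 bases, and CCAAT matches gather before it, around a median of 67 bases.

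The first comparison was between stimulated and unstimulated cells, with edgeR's quasi-likelihood F test of the state term over all 4 libraries and Benjamini-Hochberg adjustment over all 15394 genes. Since no group has a second library, the test asks how alike the state difference was in both genotypes, and its p-values do not measure the spread between animals. With stimulation 48 of the 51 genes rose and 1, Cdc25b, fell, at an adjusted p below 0.05, while Smc4 and Pttg1 did not pass. Over all genes tested 32.1% rose and 32.5% fell. The median log2 difference, stimulated over unstimulated, was 5.60 for the 51 genes and -0.05 for all genes tested. At least 4-fold higher in both genotypes were 46 of the 51, against 7.75% of all genes, and at least 16-fold higher 35, against 2.05%. The lower of the stimulated CPM values lay above the higher of the unstimulated values for 49 of the 51, against 40.4% of all genes.

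Together the 51 genes took 0.833% of gene reads in stimulated Yap KO cells and 0.811% in stimulated WT cells, against 0.112% and 0.119% in unstimulated Yap KO and WT cells. In the unstimulated libraries 27 of the genes had at most 100 reads each, and in the stimulated libraries counts ran from 462 to 14837. Levels per kilobase of merged exons were also more alike among the genes after stimulation: the SD of the log2 level over the 51 genes was 1.08 and 1.06 in stimulated Yap KO and WT cells, against 2.38 and 2.32 in unstimulated Yap KO and WT cells. Per kilobase, 51 genes in stimulated Yap KO cells and 50 in stimulated WT cells lay above the median of all genes tested, against 8 and 7 in unstimulated Yap KO and WT cells.

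**Figure D2:**
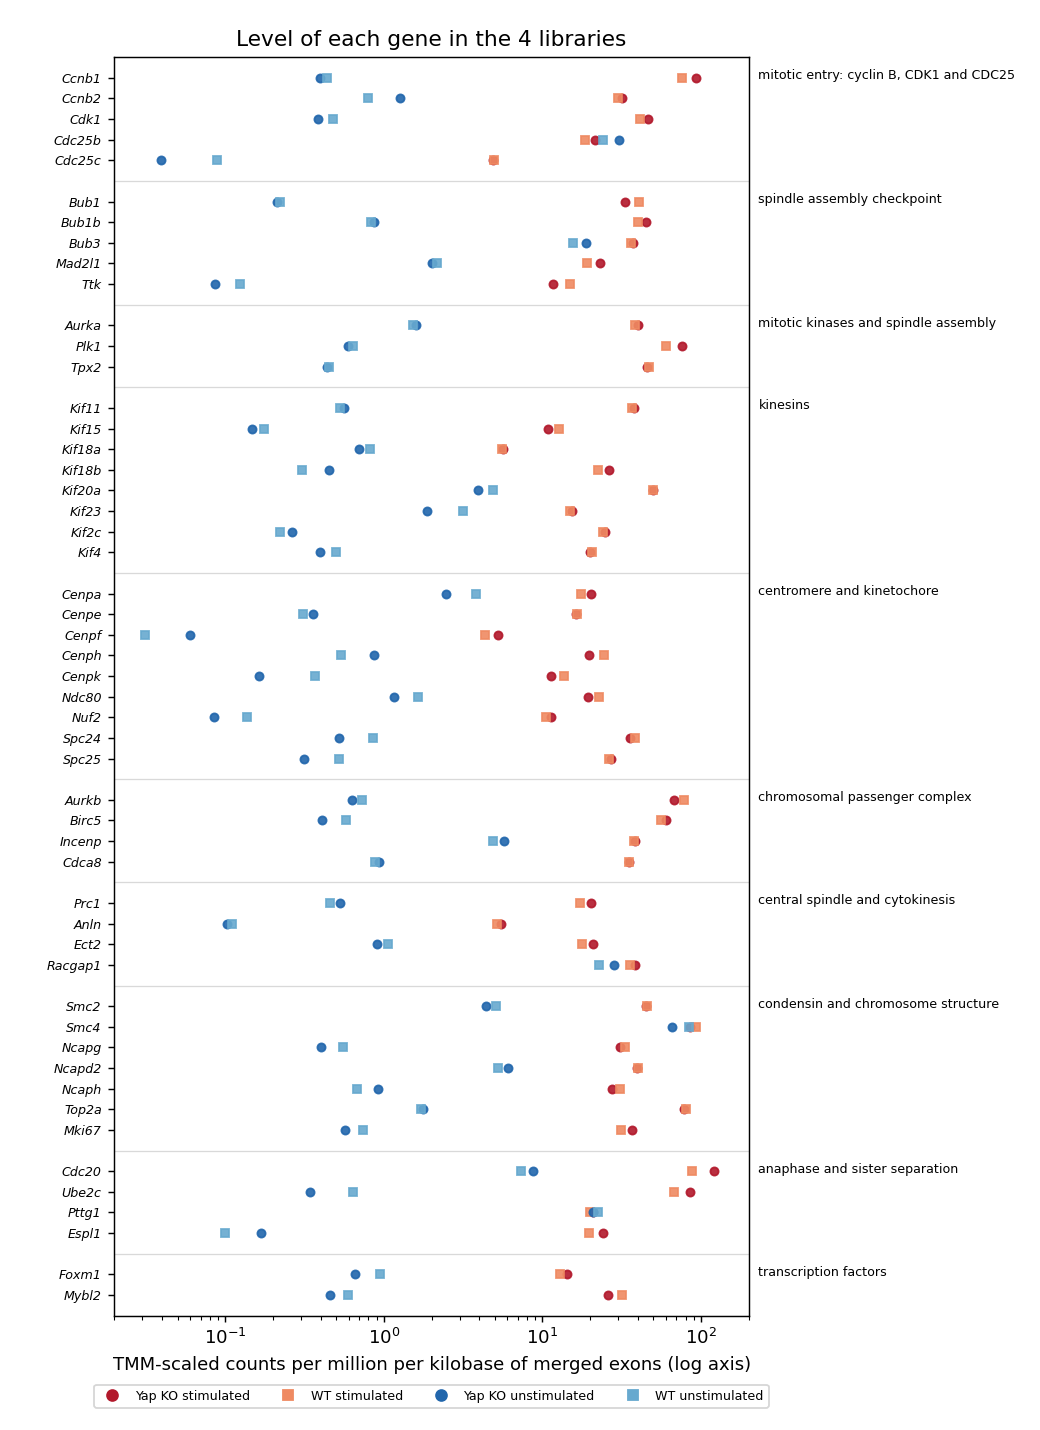
Level of each of the 51 genes, in CPM per kilobase of merged exons (scaled by TMM, edgeR's correction for library composition) on a log axis, in stimulated Yap KO (dark red circles), stimulated WT (orange squares), unstimulated Yap KO (dark blue circles) and unstimulated WT (light blue squares) libraries, grouped by role. The stimulated points lie to the right for most genes, and the 4 points of Cdc25b, Pttg1, Smc4 and Racgap1 lie close together.

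Genes of mitotic entry had the widest range of any role, with 4 of 5 risen and 1 fallen and a median log2 difference of 6.27. Ccnb1, cyclin B1, had 7536 reads in stimulated Yap KO cells and 6552 in stimulated WT cells, against 43 and 42 reads in unstimulated Yap KO and WT cells. It was nearly silent in the unstimulated libraries of both genotypes, and the log2 difference was 7.67 ± 0.19 (SE, adjusted p = 1.14e-08), the largest of the 51. Cdk1, its kinase partner, rose by a log2 difference of 6.67, Cdc25c, which had at most 10 reads in an unstimulated library, by 6.27, and Ccnb2 by 4.91. Cdc25b, a phosphatase that activates CDK1, had 1550 and 1412 reads in stimulated Yap KO and WT cells, against 2924 and 2055 reads in unstimulated Yap KO and WT cells. Its counts were higher without stimulation in both genotypes, and it fell by 0.43 on the log2 scale (SE 0.13, adjusted p = 0.0127). That call was lost when state was the only term, at a log2 difference of -0.44, and without the unstimulated Yap KO library or the stimulated WT library, at -0.26 and -0.34.

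All 5 genes of the spindle assembly checkpoint rose, with a median log2 difference of 5.65. Bub1, a checkpoint kinase at kinetochores, had 2774 and 3603 reads in stimulated Yap KO and WT cells, against 24 and 22 reads in unstimulated Yap KO and WT cells, a log2 difference of 7.39 ± 0.21 (adjusted p = 1.14e-08). Bub3, the adaptor that brings BUB1 and BUBR1 to kinetochores, had 5000 and 5194 reads in stimulated Yap KO and WT cells, against 3405 and 2512 reads in unstimulated Yap KO and WT cells. Its difference of 1.10 ± 0.13 (adjusted p = 4.53e-05) was the smallest of the group. Ttk, the kinase MPS1 that starts checkpoint signalling, rose by 6.97, Bub1b by 5.65 and Mad2l1, which encodes the checkpoint protein MAD2, by 3.32.

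The mitotic kinases Plk1 and Aurka and the AURKA activator Tpx2 all rose. Plk1, which acts in centrosome maturation and cytokinesis, had 3193 and 2681 reads in stimulated Yap KO and WT cells, against 34 and 32 in unstimulated Yap KO and WT cells (log2 difference 6.77 ± 0.20, adjusted p = 1.34e-08). Aurka, a centrosomal kinase of spindle assembly, had 1958 and 1966 reads in stimulated Yap KO and WT cells, against 105 and 88 in unstimulated Yap KO and WT cells (4.65 ± 0.16, adjusted p = 2.67e-08). In each of these genes the groups stood far apart by state and close by genotype, and Tpx2 had a log2 difference of 6.71.

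All 8 kinesins rose, with a median of 5.74. Kif2c, which takes tubulin off microtubule ends to correct wrong attachments, had 2084 and 2134 reads in stimulated Yap KO and WT cells, against 30 and 22 reads in unstimulated Yap KO and WT cells (6.64 ± 0.21, adjusted p = 1.44e-08). Kif23, the motor of centralspindlin, had 2348 and 2390 reads in stimulated Yap KO and WT cells, against 384 and 569 in unstimulated Yap KO and WT cells (2.63 ± 0.18, adjusted p = 1.97e-06). The other motors lay between them, among them Kif11, which pushes spindle poles apart, at 6.09, Kif15, its backup motor, at 6.19, the chromokinesin Kif4 at 5.49 and Kif18a, which damps chromosome movements, at 2.89. Kif20a, which carries the chromosomal passenger complex to the central spindle, had a difference of 3.51; 29.3% of its exon bases lie opposite exons of Cdc23, which had 4604 and 4453 reads in stimulated Yap KO and WT cells, against 2352 and 2268 in unstimulated Yap KO and WT cells, and without strand information reads of both genes cannot be told apart.

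**Figure D3:**
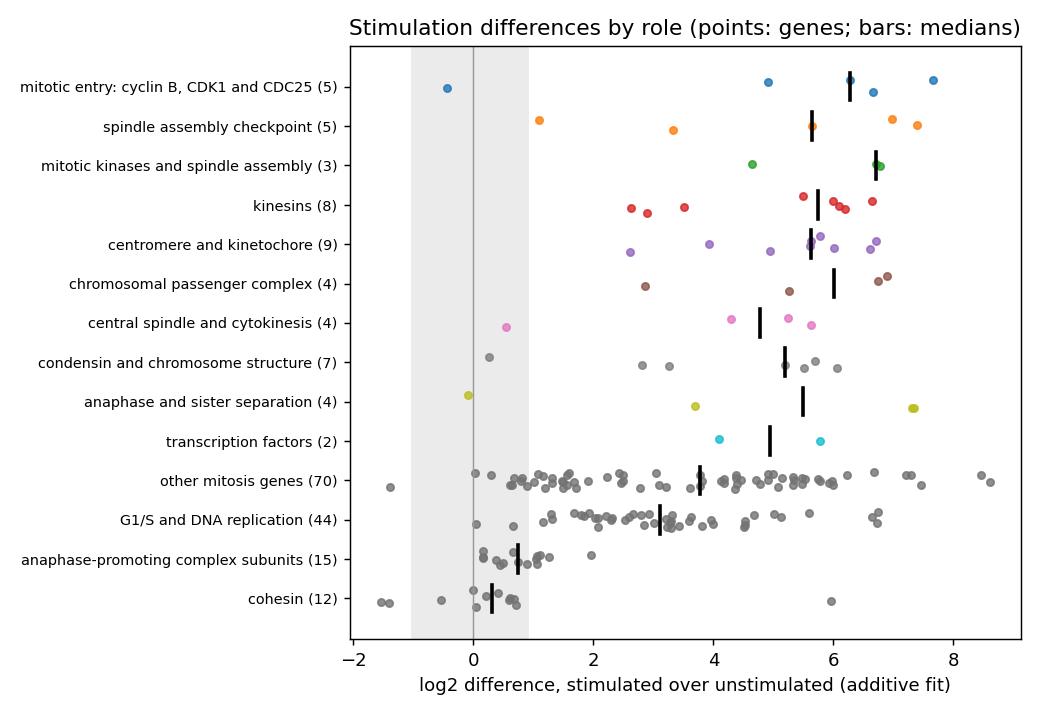
Log2 difference, stimulated over unstimulated, of each gene (points) by role and of the 4 lists of other pathway genes, with medians as bars, the number of genes in brackets and the interquartile range of all genes tested in grey. The medians of the roles lie between 4.77 and 6.71, and those of cohesin and of the anaphase-promoting complex, at 0.31 and 0.75, lie within the grey band.

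All 9 genes of the centromere and kinetochore rose, with a median of 5.62. Cenpf, a large kinetochore protein, had 1565 and 1371 reads in stimulated Yap KO and WT cells, against 24 and 11 in unstimulated Yap KO and WT cells (6.71 ± 0.26, adjusted p = 2.26e-08). Cenpa, the histone variant that marks centromeres, had 2294 and 2090 reads in stimulated Yap KO and WT cells, against 377 and 510 in unstimulated Yap KO and WT cells (2.61 ± 0.19, adjusted p = 2.44e-06). Within the NDC80 complex, which binds microtubules, Nuf2, Spc25 and Spc24 rose by 6.61, 6.01 and 5.78, and Ndc80 itself by 3.92 from 196 and 244 reads in unstimulated Yap KO and WT cells. The motor gene Cenpe rose by 5.62, and Cenpk and Cenph, of the inner kinetochore, by 5.60 and 4.95.

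The chromosomal passenger complex, which places the kinase AURKB at centromeres and then at the central spindle, rose in all 4 genes, with a median of 6.01. Birc5, which encodes survivin, had 3957 and 3870 reads in stimulated Yap KO and WT cells, against 36 and 45 in unstimulated Yap KO and WT cells (6.89 ± 0.20, adjusted p = 1.42e-08). Incenp, the scaffold, had 3218 and 3346 reads in stimulated Yap KO and WT cells, against 645 and 481 in unstimulated Yap KO and WT cells (2.85 ± 0.13, adjusted p = 1.44e-07). Incenp was thus the member of this complex with the most reads before stimulation and the smallest difference, while Aurkb rose by 6.75 and Cdca8, which encodes borealin, by 5.27.

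The 4 genes of the central spindle and cytokinesis also rose, with a median of 4.77. Anln, which links actin and septins at the cleavage furrow, had 953 and 951 reads in stimulated Yap KO and WT cells, against 24 and 23 in unstimulated Yap KO and WT cells (5.63 ± 0.23, adjusted p = 4.42e-08). Racgap1, the GTPase-activating subunit of centralspindlin, had 5269 and 5170 reads in stimulated Yap KO and WT cells, against 5213 and 3700 in unstimulated Yap KO and WT cells (0.55 ± 0.13, adjusted p = 0.00371). Scaled to library size, it was at 273 and 253 CPM in stimulated Yap KO and WT cells. In unstimulated Yap KO and WT cells it was at 201 and 162 CPM. The call was lost without the unstimulated WT library, at 0.39, and without the stimulated Yap KO library, at 0.47. Prc1, which bundles central spindle microtubules, rose by 5.25, and Ect2, which activates RhoA at the furrow, by 4.30.

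Among condensin and other genes of chromosome structure 6 of 7 rose, with a median of 5.20. Ncapg, a condensin I subunit, had 4181 and 4749 reads in stimulated Yap KO and WT cells, against 74 and 90 in unstimulated Yap KO and WT cells (6.06 ± 0.16, adjusted p = 1.34e-08). Smc4, an ATPase shared by both condensins, had 8546 and 9874 reads in stimulated Yap KO and WT cells, against 8859 and 10026 in unstimulated Yap KO and WT cells (0.26 ± 0.13, adjusted p = 0.0994). Scaled to library size, Smc4 was at 443 and 484 CPM in stimulated Yap KO and WT cells. In unstimulated Yap KO and WT cells it was at 341 and 438 CPM. Smc4 was the highest of the 51 per kilobase in both unstimulated libraries. Its ATPase partner Smc2 rose by 3.26, the condensin I subunits Ncaph and Ncapd2 by 5.20 and 2.81, the decatenating enzyme Top2a by 5.51 and Mki67, the proliferation marker that coats mitotic chromosomes, by 5.70.

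Anaphase genes rose in 3 of 4, with a median of 5.49. Espl1, separase, had 4045 and 3511 reads in stimulated Yap KO and WT cells, against 38 and 20 in unstimulated Yap KO and WT cells (7.35 ± 0.21, adjusted p = 1.14e-08). Pttg1, securin, the inhibitor of separase, had 798 and 811 reads in stimulated Yap KO and WT cells, against 1075 and 1022 in unstimulated Yap KO and WT cells (-0.08 ± 0.14, adjusted p = 0.624). The protease and its inhibitor thus differed: Espl1 was nearly silent before stimulation, while Pttg1 had over 1000 reads there. Cdc20, the checkpoint's target, rose by 3.69, and Ube2c, the E2 enzyme of the anaphase-promoting complex, by 7.30, with 22.8% of its exon bases opposite Tnnc2.

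Both transcription factors rose. Mybl2, which encodes B-MYB of the activating MuvB complex, had 2297 and 3005 reads in stimulated Yap KO and WT cells, against 55 and 63 in unstimulated Yap KO and WT cells (5.77 ± 0.16, adjusted p = 1.49e-08). Foxm1 had 1596 and 1504 reads in stimulated Yap KO and WT cells, against 98 and 124 in unstimulated Yap KO and WT cells (4.10 ± 0.19, adjusted p = 1.65e-07). Counts of 12 of the 51 genes could include reads from a gene on the other strand, or could lack reads set aside as ambiguous. Among the other 39 genes, 37 rose and the median was 5.63. In 5 genes over 20% of the 31-base stretches of the transcripts also occur in another gene on either strand, up to 27.8% in Ccnb1. Reads that match several genes could be lost there. For Kif20a and Ube2c, at 26.7% and 25.3%, the stretches include the overlap with Cdc23 and Tnnc2 on the other strand at the same place.

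Levels per kilobase showed how the balance within complexes differed between states. The Smc4 to Smc2 ratio was 1.90 in stimulated Yap KO cells and 2.04 in stimulated WT cells, against 14.9 and 16.6 in unstimulated Yap KO and WT cells. The ratio of Ndc80 to Nuf2 was 1.73 and 2.18 in stimulated Yap KO and WT cells, against 13.7 and 11.9 in unstimulated Yap KO and WT cells. In both of these pairs, whose proteins act in equal numbers, the transcript levels lay closer together after stimulation. Nuf2 had only 14 and 20 reads in unstimulated Yap KO and WT cells, so the size of its ratios there is uncertain. The ratio of Spc24 to Spc25 was 1.31 and 1.48 in stimulated Yap KO and WT cells, against 1.67 and 1.63 in unstimulated Yap KO and WT cells; with lengths of principal transcripts it was 0.925 and 1.04 in stimulated Yap KO and WT cells, so which of these genes was higher depends on the length used. Aurkb over Incenp was 1.75 and 2.07 in stimulated Yap KO and WT cells, against 0.109 and 0.150 in unstimulated Yap KO and WT cells. For Kif23 over Racgap1 the ratio was 0.399 and 0.414 in stimulated Yap KO and WT cells, against 0.0660 and 0.138 in unstimulated Yap KO and WT cells. Ccnb1 over Ccnb2, the cyclin B paralogs, was 2.91 and 2.53 in stimulated Yap KO and WT cells. In unstimulated Yap KO and WT cells it was 0.312 and 0.545. With merged exon lengths these levels thus lay farther apart after stimulation in WT cells but not in Yap KO cells. With principal transcript lengths the Ccnb1 to Ccnb2 ratio was 4.94 and 4.29 in stimulated Yap KO and WT cells, against 0.529 and 0.923 in unstimulated Yap KO and WT cells. By these lengths the levels lay farther apart after stimulation in both genotypes, so the contrast between genotypes depends on the length used. It also rests on few reads: unstimulated Yap KO and WT cells had 43 and 42 of Ccnb1 and 50 and 28 of Ccnb2. These ratios rest on 1 library per group and have no test.

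Other genes of the cell cycle were read from 4 further lists. Of 70 other mitosis genes, 67 rose and 1 fell, with a median log2 difference of 3.78. The 3 largest fitted differences were those of the kinesin gene Kif14, at 8.61, the kinase gene Melk, at 8.46, and Hmmr, a spindle protein gene, at 7.47. Kif14 had 1 read in each unstimulated library, and its log2 ratios with a prior count of 2 were 7.17 in Yap KO cells (95% counting interval 6.42 to 14.21) and 7.07 in WT cells (6.19 to 13.99), so its place above Melk is not settled. Numa1, which anchors microtubules at spindle poles, fell by 1.40. Of 44 genes of G1/S and DNA replication 43 rose, with a median of 3.11, led by Rrm2, a subunit of ribonucleotide reductase, at 6.74, Mcm10 at 6.72 and Cdc6 at 6.64. Of 15 subunits of the anaphase-promoting complex 12 rose and none fell, with a median of 0.75 and a highest value of 1.96 for Anapc15. Of 12 cohesin genes 6 rose and 3 fell, with a median of 0.31. Esco2, the acetyltransferase of S phase, rose by 5.97, while the cohesin loader genes Mau2 and Nipbl fell by 1.55 and 1.40.

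The second comparison was Yap KO against WT. The edgeR test of genotype across both states called 0 of the 51 genes, against 1.18% of all genes tested, and DESeq2's Wald test also called 0. At a share this low few calls would fall among 51 genes, so the 0 does not set them apart. Both tests average the states, so genes with opposite ratios in them are hard to call. Without adjustment, 4 of the 51 genes stood below 0.05 in the edgeR test, against 1546 of the 15394 genes tested, which is a larger share. They were Cdc20 and Espl1, each with a log2 difference, Yap KO over WT, of 0.37, Ndc80 with -0.34 and Cenpk with -0.50. With 1 library per genotype and state, genotype and cell source cannot be told apart.

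In stimulated cells the 51 genes were close between genotypes. They summed to 8614 CPM in Yap KO cells and 8338 CPM in WT cells, and the median size of the log2 ratio was 0.13, against 0.23 for all genes tested. These genes had more reads than most: their median level was 140 CPM in Yap KO cells and 143 CPM in WT cells. For all genes tested it was 16.5 and 16.9 CPM. Ratios of genes with many reads vary less by counting, so the shares of all genes given here are not at like depth. None of the 51 passed 1.5-fold with a 95% counting interval on the same side, against 5.98% of all genes higher and 8.11% lower in Yap KO cells. Counting intervals, which cover the sampling of reads alone, lay above 0 for 18 genes and below 0 for 13, against 23.9% and 23.1% of all genes. Cdc20 had the highest ratio, with 4359 reads in Yap KO cells and 3336 in WT cells, a log2 ratio of 0.47 (95% interval 0.40 to 0.53). Next came Ube2c and Plk1 at 0.33, Espl1 at 0.29 and Ccnb1 at 0.28. The lowest was Ttk, with 1108 reads in Yap KO cells and 1502 in WT cells, at -0.36 (-0.47 to -0.24), followed by Cenph at -0.32, Mybl2 at -0.31, Bub1 at -0.30 and Cenpk at -0.28. Intervals lay above 0 for 3 of the 4 anaphase genes, 3 of the 4 cytokinesis genes and 3 of the 5 genes of mitotic entry, and below 0 for none of these. Among the 7 genes of chromosome structure they lay below 0 for 4 and above 0 for 1, among the 9 of the kinetochore below 0 for 4 and above 0 for 2, and among the 44 of the G1/S list below 0 for 31 and above 0 for 3. The difference between these groups was not tested.

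In unstimulated cells the 51 genes summed to 1102 CPM in Yap KO cells and 1144 CPM in WT cells. Smc4 supplied 341 CPM in Yap KO cells and 438 CPM in WT cells, and without it the direction turned, with 760 CPM in Yap KO cells and 706 CPM in WT cells. Such sums follow the highest genes, among them Racgap1, at 201 CPM in Yap KO cells and 162 CPM in WT cells. The median log2 ratio, Yap KO over WT, of the 51 genes was -0.11. Counting intervals lay below 0 for 12 of the 51 and above 0 for 6, against 3126 and 4487 of the 15394 genes tested. The median size of the log2 ratio was 0.31, against 0.22 for all genes tested. Here the 51 genes had fewer reads than most, with a median of 3.08 CPM in Yap KO cells and 2.93 CPM in WT cells. For all genes tested the median was 17.1 and 16.7 CPM, so this comparison is not at like depth either. At least 1.5-fold lower in Yap KO cells were 5 of the 51, against 6.43% of all genes, and none was as much higher, against 7.41%. Kif23 had 384 reads in Yap KO cells and 569 in WT cells, and Cenpa 377 in Yap KO cells and 510 in WT cells, with log2 ratios of -0.74 (-0.94 to -0.56) and -0.61 (-0.81 to -0.42). Cenpk, Spc24 and Ube2c, the other three, rested on at most 50 reads a library, and their intervals reached -0.41, -0.04 and -0.12.

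**Figure D4:**
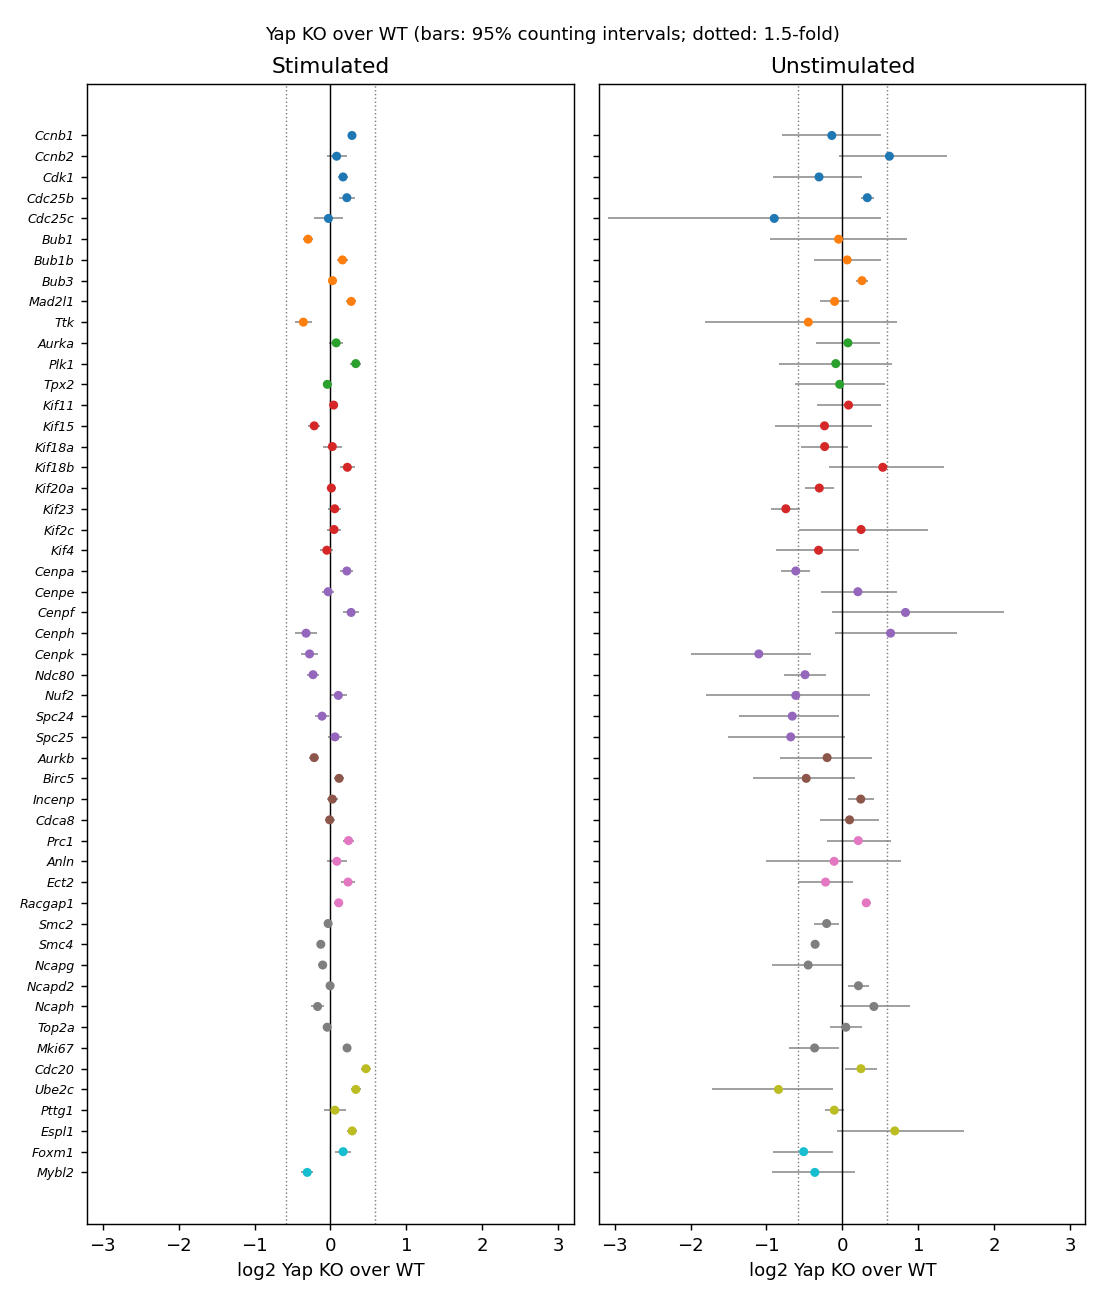
Log2 ratio of Yap KO over WT for each gene in stimulated cells (left panel) and unstimulated cells (right panel), with 95% counting intervals as bars, dotted lines at 1.5-fold and colours by role. In stimulated cells all points lie between -0.36 and 0.47, and in unstimulated cells the bars are wide because most of these genes had few reads there.

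The size of the stimulation response was set side by side in the genotypes as values without a test. Its median log2 ratio over the 51 genes was 5.58 in Yap KO cells and 5.41 in WT cells. The difference of the responses, Yap KO minus WT, had a counting interval above 0 for 13 genes, against 17.8% of all genes, and below 0 for 6, against 24.2%. It ran from -0.96 for Cenph, an interval of -1.69 to -0.22, to 1.18 for Ube2c, an interval of 0.45 to 1.90. Because the unstimulated counts of both genes were at most 40 reads, these extremes rest on few reads. Among genes with more unstimulated reads, Cenpa had a response difference of 0.83 (0.62 to 1.04) and Kif23 of 0.80 (0.60 to 1.00).

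**Figure D5:**
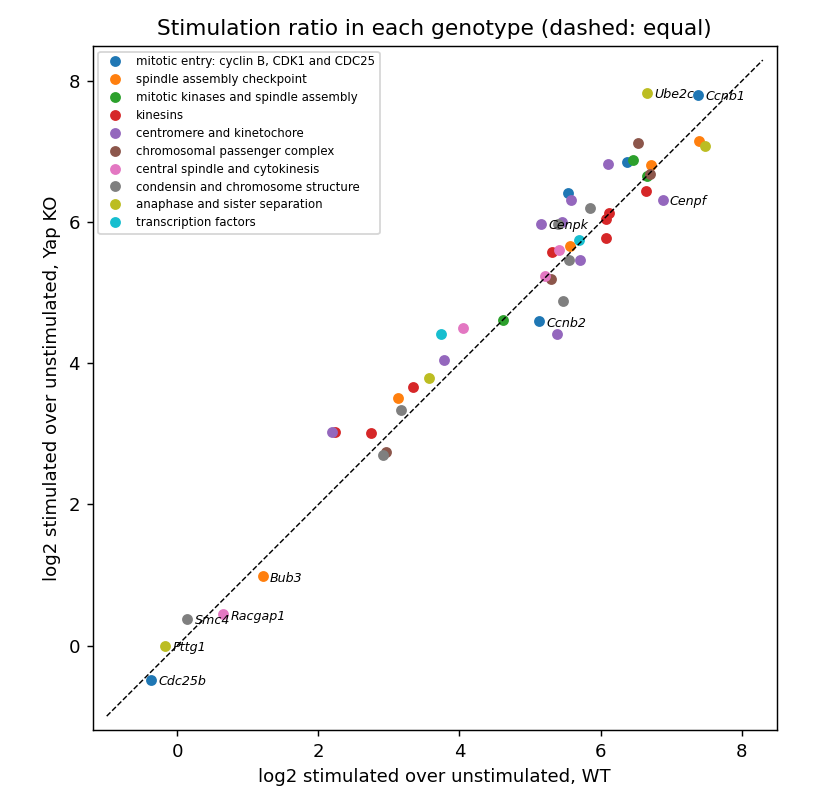
Log2 ratio of stimulated over unstimulated in Yap KO cells (y axis) against the same ratio in WT cells (x axis) for each of the 51 genes, coloured by role, with the line of equal ratios dashed. The points follow the line, from Cdc25b at the lower left to Ccnb1 at the upper right, and Ube2c lies farthest above it.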

How the data were processed

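The authors deposited raw read counts per Ensembl gene identifier for each library, in the layout of htseq-count. Per the submitters' processing notes the build was mm9, and no source used here gives aligner, annotation or strand setting. Reads in genes were 35.6 to 39.7% of all entries, and the summary entries for other reads were left out.

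Low genes were dropped by edgeR's filterByExpr, grouped by state, at a minimum count of 10, and counts were scaled by TMM and fitted with edgeR 4.0.16 (quasi-likelihood F test, genotype and state as additive terms, 1 residual degree of freedom). DESeq2 1.42.0 was an alternative. The fit was tested on simulated data, drawn with the fit's own dispersion and without any genotype effect, unlike the real libraries. It recovered 85 of 100 genes changed by a log2 of 2 and 96 of 100 changed by 4. Of the unchanged genes, 11 were called. Within-state and within-genotype log2 ratios used a prior count of 2 and exact (Clopper-Pearson) intervals, which cover counting error only; response differences used a normal interval on the log scale. SEs are Wald errors from the fit's quasi-likelihood variance. Lengths, coordinates and opposite exons came from GENCODE on GRCm38.

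The genes and all lists were chosen with earlier results of these data known. Named with full statistics are the genes with the largest and smallest state difference in each role. The F and Wald tests were two-sided.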

Additional observations from a re-analysis of the deposited data

Results flagged for a closer look

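Of the 51 genes, 4 had genotype ratios whose 95% counting intervals lay above 0 in stimulated cells and below 0 in unstimulated cells, and the difference between the states was not tested. The log2 ratio of Yap KO over WT was 0.33 in stimulated and -0.84 in unstimulated cells for Ube2c, which encodes an E2 enzyme of the anaphase-promoting complex. For the centromeric histone gene Cenpa it was 0.22 in stimulated and -0.61 in unstimulated cells. Mki67, a gene of mitotic chromosome surfaces, had 0.22 in stimulated and -0.37 in unstimulated cells. The transcription factor gene Foxm1 had 0.17 in stimulated and -0.51 in unstimulated cells. Of all genes tested, 1367 (8.88%) had intervals on opposite sides of 0 in the same sense or the reverse, a larger share than the 4 of the 51. Ube2c and Foxm1 had at most 124 reads in each unstimulated library.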

How the results depend on the processing

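The genotype term of the main fit pairs the stimulated and unstimulated library of each genotype, and the fits with state as the only term lack this pairing. Whether the paired libraries share an animal or culture is not known, because the groups share only the replicate number 1. When each library was left out in turn, with state as the only term, 47 to 48 of the 51 genes were called as risen, and the median log2 difference of the 51 was 5.45 to 5.62. In these fits the lone library of a state is assumed to vary like the others. The count of fallen genes was 0 to 1 over the same fits. It was 0 when state was the only term. Leaving out genes that have exons opposite another gene removed Cdc25b itself, so that fit could not call it. Fewer genes were tested there, and 3105 of all genes rose and 3243 fell. The median of all genes was -0.16 with upper-quartile scaling, against -0.05 with TMM, and that of the 51 genes was 5.49. Without a filter on low counts 671 of all genes were called between genotypes, against 182, and still 0 of the 51. A threshold of 2-fold left 1 gene past it between genotypes in unstimulated cells (7.36% of all genes). A threshold of 0.32 on the log2 scale gave 11 there (24.5% of all genes) and 4 in stimulated cells (24.9%). In a window of 100 bases before the start, 25.6% of the genes held a CHR match, against 7.18% of all genes. Alternatives chosen after seeing the data were principal transcript lengths and leaving out members with exons opposite another gene, which moved the median log2 stimulation ratio to 5.61 in Yap KO and 5.47 in WT cells. With principal transcript lengths the ratio of Ccnb1 to Ccnb2 moved by over 1.5-fold in every library. Over all alternatives, 544 single-gene values kept their direction and call and 5, of Cdc25b and Racgap1, lost the call. The depth of the unstimulated libraries limits genotype ratios there.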
